A study of Mus musculus with 24 samples.

Results

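The 7 genes through which thyroid hormone is received, activated, inactivated, bound and read out were followed in whole mouse cochlea: the receptors Thra and Thrb, the deiodinases Dio2 and Dio3, the hormone binding protein Crym, and the hormone-responsive regulators Klf9 and Hr. Every probe set of the expression array that is annotated with 1 of these symbols and no other was taken, which gave 17 of 45101 probe sets. They cover 6 of the 7 genes: Thra has 3 probe sets, Thrb 1, Dio2 3, Crym 1, Klf9 7 and Hr 2. Dio3, the deiodinase that inactivates the hormone, has no probe set under its own symbol in the annotation used and was not analysed here. A further probe set, which the study's tables assign to Thrb, has no single symbol in that annotation and was not analysed here either. The study lists that probe set among those significantly lower in the knockout at P7. Cochleae were taken from wild type mice and from mice with constitutive loss of Chrna9, which encodes the α9 subunit of the nicotinic acetylcholine receptor of hair cells, at postnatal days 3, 7, 13 and 60 (P3, P7, P13 and P60). All animals, controls included, were 129S6 x CBA/CaJ hybrids that had been crossed back to CBA/CaJ for 7 generations or more. Each array held total RNA of pooled cochleae, from 3 to 5 mice per the labels, with 3 arrays for each age and genotype and 24 in all. The methods describe pools of more cochleae at P3 and P7 than at P13 and P60, so pool size and age cannot be told apart. The cells that express each gene are not separated in such a pool, and fewer cells of a type cannot be told apart from less RNA per cell.

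The thyroid gland releases mainly thyroxine, and target tissues convert it into the active hormone triiodothyronine with Dio2, whereas Dio3 degrades both. The active hormone binds the nuclear receptors encoded by Thra and Thrb, which sit on DNA together with retinoid X receptors and switch target genes between repression by corepressors and activation by coactivators. Crym binds the hormone in the cytosol, Klf9 is a transcription factor gene widely induced by the hormone, and Hr encodes a corepressor that binds the receptors and is itself a target gene. In the cochlea the hormone is needed before hearing begins: its lack delays remodelling of the sensory epithelium and leaves an abnormal tectorial membrane, and loss of Thrb or of Dio2 impairs hearing in mice.

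The start regions of Dio2 and Klf9 are shown because these were the activating enzyme and the target gene whose signals moved in opposite directions with age. Both come from RefSeq on build GRCm38.p6 and run from 250 bases before to 50 bases after the annotated start, written from 5′ to 3′ on the strand of the gene. Dio2 lies at chr12:90738989-90739288 on the minus strand, and Klf9 at chr19:23140976-23141275 on the plus strand. Capitals mark matches to any of the motifs named below.
Dio2: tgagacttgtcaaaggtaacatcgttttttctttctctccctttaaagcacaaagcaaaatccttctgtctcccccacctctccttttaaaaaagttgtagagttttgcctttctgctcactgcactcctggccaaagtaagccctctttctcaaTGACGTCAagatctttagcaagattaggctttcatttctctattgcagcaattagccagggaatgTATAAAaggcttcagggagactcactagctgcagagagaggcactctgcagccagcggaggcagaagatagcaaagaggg
Klf9: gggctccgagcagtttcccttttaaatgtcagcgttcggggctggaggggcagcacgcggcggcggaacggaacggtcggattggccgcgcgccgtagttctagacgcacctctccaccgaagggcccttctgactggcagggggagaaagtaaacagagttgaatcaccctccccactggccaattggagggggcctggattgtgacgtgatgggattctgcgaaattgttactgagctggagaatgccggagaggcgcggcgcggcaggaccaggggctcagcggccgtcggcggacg
The capitals in the Dio2 region are a cAMP response element, TGACGTCA, that begins 95 bases before the start, and a TATA box, TATAAA, that begins 30 bases before it. These motifs occurred on either strand in 1.79% and 13.6% of 32851 start regions of this length. The Klf9 region held neither, nor the half-site for nuclear receptors, AGGTCA, which occurred in 16.3% of start regions. The half-site was found 184 bases before the start in 1 of the 2 start regions listed for Thrb, at chr14:17660710-17661009. The element classically bound by thyroid hormone receptors, AGGTCA followed after 4 bases by another AGGTCA in the same direction, was in none of the regions found for Dio2, Dio3, Thrb and Klf9, and occurred in 0.0152% of start regions. It contains the half-site, so both searches count it. A match is a description of the letters, and no match says only that these letters are not in this window. Start regions of Thra, Crym and Hr were not analysed here.

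Some facts about the whole series bear on these genes. The labelled tissue was checked against markers of the lateral wall: Otos and Coch, which mark cochlear fibrocytes, had mean signals at the 99.1 and 98.4 percentile of all probe sets. The prestin gene Slc26a5, which marks outer hair cells, was at percentile 17.7, and the hair cell transcription factor gene Pou4f3 at 29.5. Other hair cell genes were at 65.5 (Otof), 64.9 (Myo7a), 64.2 (Gfi1), 47.9 (Lhx3), 38.0 (Atoh1) and 24.2 (Cdh23). The brightest of 3 probe sets for the targeted gene Chrna9, 1430086_at, had log2 levels from 4.91 to 6.33 in wild type arrays and from 4.99 to 5.94 in knockout arrays, at percentile 31.7 of mean signal. Over all ages the genotypes overlapped there, but at P60 its wild type arrays ran from 5.61 to 6.33 and its knockout arrays from 5.27 to 5.35. Of the 12 combinations of a Chrna9 probe set and an age, 3 were separate, each with wild type above knockout. Besides 1430086_at at P60 they were 1445615_at at P3 (4.18 to 4.38 against 3.68 to 4.14) and 1447214_at at P13 (4.53 to 5.08 against 3.60 to 4.15). At P13 the genotypes were separate, in either direction, for 33.6% of all probe sets, a share not taken at the other ages. Because no source used here places the probe sets against the deleted part, these signals do not check the genotype labels. On 5 of the 24 arrays the control probe set at the 5′ end of Gapdh was more than 4 log2 units below that at its 3′ end: P3 wild type 1, P3 knockout 2, P13 wild type 1 and 2, and P60 wild type 1. Such a gap is a sign of partly degraded or shortened RNA, and these arrays, called low-5′ arrays, are named below beside the results they touch most; the plot of the P13 comparison gives their shift for all 17 probe sets.

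Comparing ages answered how the pathway changed as the cochlea matured from before hearing (P3 and P7) through hearing onset (P13) to the adult (P60). For these comparisons the deposited log2 values were quantile normalized over all 24 arrays, genotypes were averaged, and a probe set was called at a limma adjusted p below 0.05 over all 45101 probe sets. Crym and Dio2 fell, Klf9 rose, Thra dipped at P13 and came back, and Hr was lowest at P3. From P3 to P60, 5 of the 17 probe sets rose, against 12% of all probe sets, and 4 fell, against 13.3% of all. The median log2 difference was 0.31 over the members and -0.05 over all probe sets. The interaction of age and genotype passed for 0 of 17 probe sets at every step, against 0% of all probe sets from P3 to P7, 0.00222% from P7 to P13 and 0% from P13 to P60, and the smallest unadjusted p of a member was 0.00819 by limma.

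**Figure D1:**
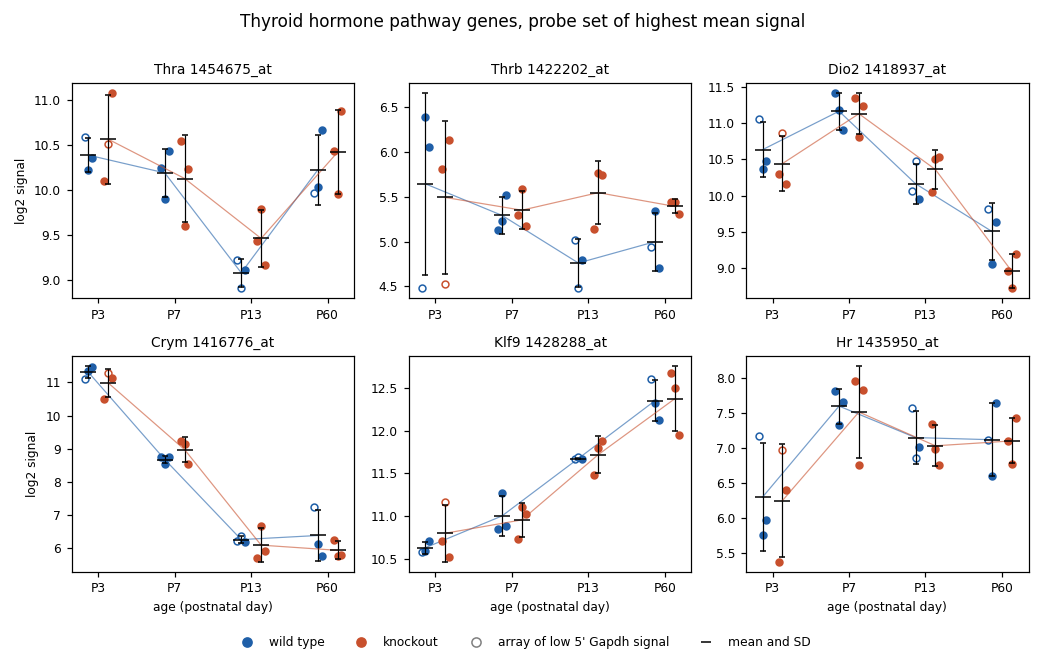
Log2 signal after quantile normalization over all arrays (vertical axis) at each age (horizontal axis) for the probe set of highest mean signal of each gene. Each circle is 1 array, black bars are the mean and SD of 3 arrays, and open circles are the 5 arrays of low Gapdh 5′ signal; Crym fell from a mean of 11.15 at P3 to 6.17 at P60 while Klf9 rose from 10.71 to 12.36.

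Crym, which encodes μ-crystallin, changed most among the members. At P3 the log2 level of its probe set 1416776_at ran from 10.52 to 11.47 over the 6 arrays, with a median of 11.22. At P7 it ran from 8.54 to 9.24, with a median of 8.75. The ranges of the P3 and P7 arrays did not overlap. At P13 the log2 level ran from 5.71 to 6.67, with a median of 6.21, and at P60 from 5.77 to 7.25, with a median of 5.97. All P13 and P60 arrays were below all P7 arrays, and the P13 and P60 ranges overlapped. The log2 difference was -2.32 ± 0.22 (SE) from P3 to P7 (limma adjusted p = 4.48e-06) and -2.64 ± 0.22 from P7 to P13 (adjusted p = 1.33e-07). From P13 to P60 it was -0.02 (95% confidence interval -0.48 to 0.45), so both called falls lay between P3 and P13. Over the full interval the log2 difference was -4.98 ± 0.22 (adjusted p = 8.44e-12), a fall of 31.6-fold. It was -4.92 in wild type alone and -5.04 in knockout alone. In the order of the 8 group means, P3 wild type and P3 knockout came first, P7 knockout and P7 wild type next, and the 4 groups of P13 and P60 last, with no overlap between these 3 tiers and overlap of neighbours within each. The high P60 array was wild type 1, which is among those of low Gapdh 5′ signal. When the 5 such arrays were dropped, the log2 difference from P3 to P60 was -5.16.

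Dio2, the enzyme that makes active hormone inside the tissue, was highest at P7 on its brightest probe set, 1418937_at. Its log2 level ran from 10.16 to 11.06 at P3, with a median of 10.42, and from 10.81 to 11.41 at P7, with a median of 11.21. At P13 it ran from 9.95 to 10.54, with a median of 10.28, and at P60 from 8.73 to 9.82, with a median of 9.13. No P7 array overlapped P13, and no P13 array overlapped P60, whereas P3 overlapped both P7 and P13. The log2 difference from P3 to P7 was 0.61 ± 0.18, and the adjusted p of 0.0519 missed the threshold by limma. It was 0.64 after median centring (adjusted p = 0.0523), 0.71 on the deposited scale (adjusted p = 0.0248), where the median of all probe sets shifted by 0.13 at this step, and 0.82 with the low-5′ arrays dropped (adjusted p = 0.0074). Dio2 then fell, with a log2 difference of -0.88 from P7 to P13 (adjusted p = 0.0022) and of -1.03 from P13 to P60 (adjusted p = 0.000397). From P3 to P60 the log2 difference was -1.30 ± 0.18 (adjusted p = 1.86e-05).

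The other Dio2 probe sets also fell from P3 to P60, with log2 differences of -0.77 for 1426081_a_at (adjusted p = 0.0151) and -0.85 for 1418938_at (adjusted p = 0.0359). They followed the brightest one only loosely, with Pearson r of 0.43 and 0.38 over the 24 arrays. Between P7 and P13, 1426081_a_at fell, with a log2 difference of -1.03 (adjusted p = 0.00361), and then gave a log2 difference of 0.03 from P13 to P60 (adjusted p = 0.939). At the P7 to P13 step its log2 difference was -1.70 in wild type and -0.37 in knockout, and the interaction did not pass (log2 difference of differences 1.33, limma adjusted p = 0.489). The P3 arrays wild type 1 and knockout 2 were low for both of these probe sets and had the low Gapdh 5′ signal. On the deposited scale their log2 difference from the other arrays of their group was -1.15 and -0.70 for 1426081_a_at, and -1.60 and -1.27 for 1418938_at, whereas 1418937_at was not lower on them. With the 5 low-5′ arrays dropped, the log2 difference from P3 to P60 was -1.12 for 1426081_a_at (adjusted p = 0.00128) and -1.34 for 1418938_at (adjusted p = 0.00105).

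Thra, the receptor gene expressed across most tissues, was lowest at P13 on each of its 3 probe sets. For 1454675_at the log2 level ran from 10.10 to 11.09 at P3, with a median of 10.44, and from 9.60 to 10.55 at P7, with a median of 10.24. At P13 it ran from 8.90 to 9.79, with a median of 9.19, and at P60 from 9.95 to 10.88, with a median of 10.23. The P60 arrays were all above the P13 arrays, and 1 P13 array, knockout 2, reached into the P7 range. The log2 difference from P7 to P13 was -0.89 ± 0.21 (adjusted p = 0.00557), and from P13 to P60 it was 1.06 ± 0.21 (adjusted p = 0.00104). Its 2 fellow probe sets, 1443952_at and 1426997_at, had log2 differences of -0.53 and -0.67 at the first of these steps and of 0.50 and 0.75 at the other, all called. For 1454675_at, 1443952_at and 1426997_at in wild type alone the log2 differences from P7 to P13 were -1.12, -0.76 and -0.86, all called. In knockout alone they were -0.67, -0.30 and -0.47, none called. From P13 to P60 they were 1.15, 0.58 and 0.87 in wild type, called except for 1443952_at. In knockout they were 0.96, 0.43 and 0.63, none called. The interaction passed for none at either step. Over both genotypes without the low-5′ arrays, 1454675_at gave -0.87 and 1.10. Since P13 arrays had the highest overall medians as deposited, the dip was also read there: for 1454675_at the log2 differences were -0.61 (adjusted p = 0.0446) and 0.67 (adjusted p = 0.017). For 1426997_at they were -0.45 (adjusted p = 0.0447) and 0.48 (adjusted p = 0.0211). Neither step was called there for 1443952_at, with log2 differences of -0.31 (adjusted p = 0.208) and 0.23 (adjusted p = 0.291), and its rise from P13 to P60 was not called after median centring either (adjusted p = 0.0822). The 1443952_at signal was also lower on the P60 low-5′ array, by a deposited log2 difference of -0.85 from the rest of its group. From P3 to P60 no Thra probe set was called, and that of 1454675_at had a log2 difference of -0.16 (95% confidence interval -0.59 to 0.28).

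Thrb, the receptor gene needed for hearing, was measured by 1422202_at, whose mean signal stood at percentile 30.4 of all probe sets. Its log2 level ran from 4.48 to 6.39 at P3, with a median of 5.94, and from 5.13 to 5.58 at P7, with a median of 5.27. At P13 it ran from 4.48 to 5.76 (median 5.08) and at P60 from 4.70 to 5.44 (median 5.33). All ages overlapped, and the 2 lowest P3 values came from the arrays of low Gapdh 5′ signal, where the deposited log2 level differed by -1.68 and -1.37 from the other arrays of the group. Over all arrays no step was called, and the log2 difference from P3 to P60 was -0.37 ± 0.28 (adjusted p = 0.382). With the 5 low-5′ arrays dropped it was -0.89 ± 0.18 (adjusted p = 0.00148), and that from P3 to P7 was -0.78 ± 0.17 (adjusted p = 0.0107). The Thrb trend therefore depends on whether these arrays are kept.

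**Figure D2:**
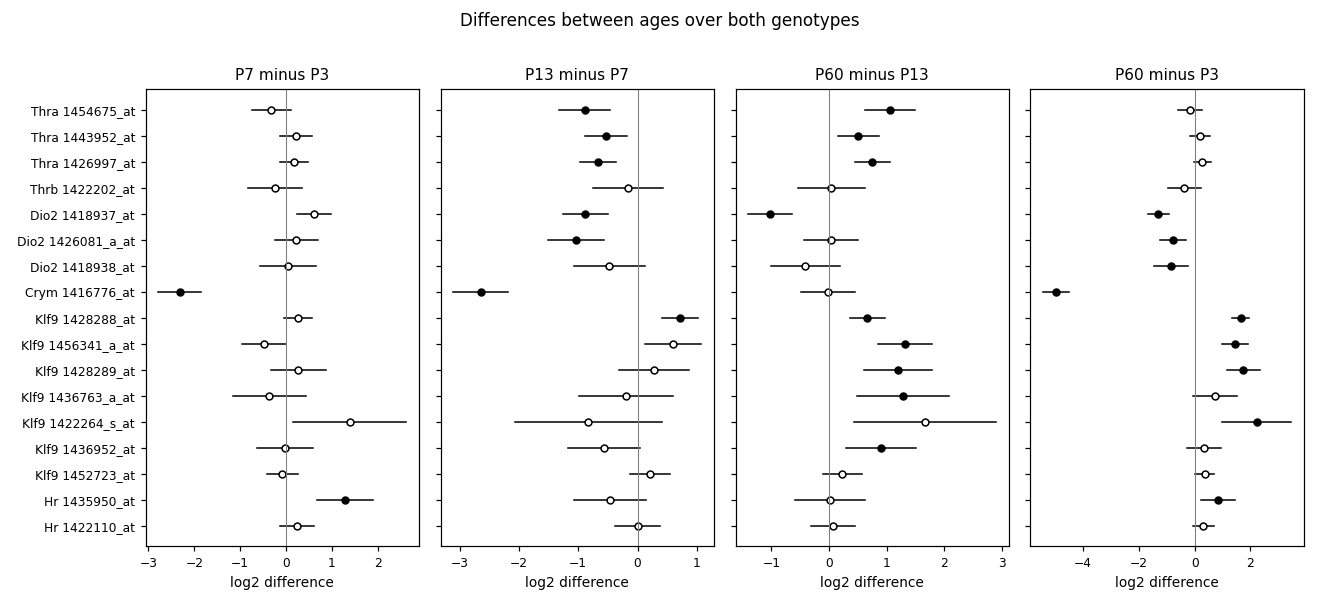
Log2 difference (horizontal axis) between consecutive ages and between P3 and P60 for the 17 probe sets (vertical axis), averaged over genotypes, with 95% confidence intervals as lines; filled points had a limma adjusted p below 0.05. Crym stands apart on the left before P13, the 3 Thra probe sets lie left of 0 from P7 to P13 and right of it from P13 to P60, and 4 of 7 Klf9 probe sets are filled on the right between P3 and P60.

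Klf9, the hormone-responsive transcription factor gene, rose with age. The log2 level of its brightest probe set, 1428288_at, ran from 10.52 to 11.17 at P3, with a median of 10.65, and from 10.73 to 11.27 at P7, with a median of 10.95. At P13 it ran from 11.48 to 11.88, with a median of 11.68, and at P60 from 11.94 to 12.67, with a median of 12.41. P3 and P7 overlapped, and P7, P13 and P60 were each separate from the next, in both genotypes. The log2 difference was 0.26 ± 0.15 from P3 to P7 (adjusted p = 0.333), 0.72 ± 0.15 from P7 to P13 (adjusted p = 0.00214) and 1.65 ± 0.15 from P3 to P60 (adjusted p = 7.77e-08). It was 1.72 in wild type alone and 1.57 in knockout alone between P3 and P60. The last step, from P13 to P60, depended on the scaling, with a log2 difference of 0.66 after quantile normalization (adjusted p = 0.00287), 0.40 after median centring (adjusted p = 0.0615) and 0.21 as deposited (adjusted p = 0.234). On the deposited scale the median of all probe sets shifted by -0.35 between these ages.

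Among the other 6 Klf9 probe sets, 3 rose from P3 to P60: 1456341_a_at by 1.44, 1428289_at by 1.74 and 1422264_s_at by 2.22 on the log2 scale, with adjusted p of 7.54e-05, 9.97e-05 and 0.00808. The 3 that were not called, 1436763_a_at, 1436952_at and 1452723_at, had log2 differences of 0.72, 0.32 and 0.36. Only 1456341_a_at and 1428289_at followed 1428288_at closely across the 24 arrays, with Pearson r of 0.78 and 0.87; the others had r from 0.12 to 0.45. The 1422264_s_at signal was low on each of the arrays of low Gapdh 5′ signal against the rest of its group. On the deposited scale the log2 difference was -1.70 in P3 wild type, -2.44 in P3 knockout, -1.66 in P13 wild type and -3.52 in P60 wild type. Without these arrays its log2 difference from P3 to P60 was 2.12 (adjusted p = 3.9e-06). Shifts of this kind were also seen for 1436763_a_at, at -1.22 in P3 knockout, -0.67 in P13 wild type and -1.51 in P60 wild type, and for 1436952_at, at -0.84 in P3 wild type and -0.95 in P60 wild type. The P60 low-5′ array was higher than its group for 1452723_at, by 0.72.

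**Figure D3:**
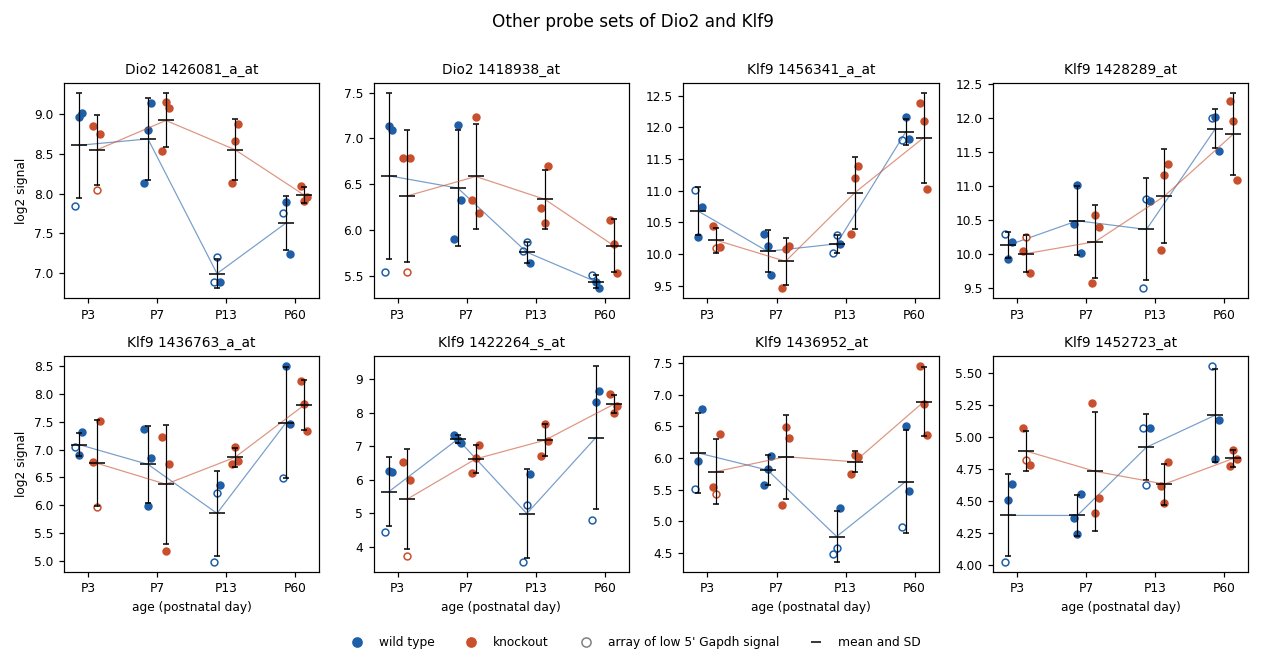
Log2 signal after quantile normalization (vertical axis) by age (horizontal axis) for the Dio2 and Klf9 probe sets other than the brightest of each gene, drawn as circles for arrays with mean and SD bars of 3 arrays. Dio2 1426081_a_at separates the genotypes at P13, and the open circles of low Gapdh 5′ signal lie lowest in their groups for Klf9 1422264_s_at.

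Hr, the corepressor gene hairless, rose between P3 and P7 on 1435950_at. Its log2 level ran from 5.38 to 7.18 at P3, with a median of 6.19, and from 6.76 to 7.95 at P7, with a median of 7.73. At P13 it ran from 6.76 to 7.58, and at P60 from 6.60 to 7.64, with medians of 7.00 and 7.11. The ranges overlapped at every step, and the 2 highest P3 arrays were those of low Gapdh 5′ signal. The log2 difference from P3 to P7 was 1.28 ± 0.29 (adjusted p = 0.0111), and it was 1.68 with the low-5′ arrays dropped (adjusted p = 0.00189). From P3 to P60 it was 0.83 ± 0.29 with an adjusted p of 0.042, a call near the threshold. It was lost when any of P3 wild type 2 or 3, P3 knockout 1 or 3, P7 wild type 3, P13 knockout 2, P60 wild type 1 or 3, or P60 knockout 1 or 3 was left out, with log2 differences from 0.61 to 0.87. It was also lost in a fit with a term for the 14 arrays that had poly-A controls, which are bacterial transcripts added to the RNA (mean log2 signal of at least 8), at a log2 difference of 0.76. The other Hr probe set, 1422110_at, was not called at any step, and its log2 difference from P3 to P60 was 0.31 (95% confidence interval -0.07 to 0.69).

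Counted by step, more member probe sets were called after P7 than before it, as was also the case over all probe sets. From P3 to P7, 1 of 17 probe sets rose (Hr) and 1 fell (Crym), against 2.19% and 4% of all probe sets. From P7 to P13, 1 rose (Klf9) and 6 fell (3 of Thra, 2 of Dio2 and Crym), against 9.32% and 6.51% of all. The median log2 difference at that step was -0.47 over the members and -0.01 over all probe sets. From P13 to P60, 8 rose (3 of Thra and 5 of Klf9) and 1 fell (Dio2 1418937_at), against 9.68% and 11.3% of all, with medians of 0.50 and -0.05. In wild type alone 6 fell between P7 and P13 and in knockout alone 1 fell, against 5.55% and 0.911% of all probe sets, and the difference itself passed the interaction test for none of the 17. Probe sets of 1 gene share its RNA and are not independent of one another.

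The other genes of the pathway were taken from lists of named genes, 1 probe set a gene, and are given for P60 against P3, where 15.7% of all genes rose and 17.2% fell with a median log2 difference of -0.06. Of 6 hormone transporter genes measured out of 8 listed, 4 rose and 0 fell, with a median log2 difference of 0.71. The largest rises were those of the organic anion transporter genes Slco1c1 and Slco1a4, with log2 differences of 2.28 and 1.80, followed by the amino acid transporter genes Slc7a8 (0.90) and Slc3a2 (0.51). Among 7 genes of hormone metabolism and transport in blood, the sulphotransferase gene Sult1a1 rose (log2 difference 1.84) and the deiodinase gene of iodotyrosines, Iyd, fell (log2 difference -0.71), at a mean signal of only percentile 25 for Iyd. Receptor partners and coregulators had 2 calls: of 12 measured out of 14 listed, the coactivator gene Ncoa1 rose (log2 difference 0.56) and the corepressor complex gene Tbl1x fell (log2 difference -0.52), and the median was 0.00. Of 4 thyroid gland genes measured out of 6 listed, 0 passed.

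Of 16 genes known as hormone targets in brain or liver, 8 rose and 1 fell from P3 to P60, with a median log2 difference of 0.68. The 4 largest changes were those of Thrsp (3.08), which acts in lipid synthesis, the repressor gene Bcl6 (2.73), the GABA receptor subunit gene Gabrd (2.70) and the clock repressor gene Nr1d1 (2.15). The mean signal of Gabrd was only at percentile 25.2. Flywch2 fell, with a log2 difference of -0.62. Of 8 genes measured out of 10 listed as dependent on the hormone in the cochlea, 1 rose and 3 fell. The tectorial membrane genes Tectb and Tecta fell, with log2 differences of -5.14 and -3.78, as did the growth factor receptor gene Fgfr3 (-1.12), while the strial potassium channel gene Kcnj10 rose (1.34). Markers of tissues next to the cochlea moved over the same interval: 8 of 10 cerebellar genes rose and 0 fell, 8 of 9 genes of bone marrow and blood rose and 0 fell, and 4 of 5 cartilage genes fell and 0 rose. The mean log2 level of the cerebellar list ran from 7.37 to 8.18 over P3 arrays and from 8.18 to 11.75 over P60 arrays, that of bone marrow and blood from 6.81 to 8.18 and from 10.31 to 10.80, and that of cartilage from 10.86 to 12.48 and from 8.11 to 8.48. Their part in the changes of Crym, Dio2, Klf9 and the lists was not tested.

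Across all 24 arrays, the genes whose log2 signal ran most like each member were looked up among 9096 or 9097 single-symbol genes of higher mean signal, as a description over arrays that share ages and pools. Crym ran closest to Tecta (Pearson r = 0.97), Col14a1 and Col18a1 (0.96 each). Klf9 ran closest to Bcl6, Kat2b and Fam107a, with r of 0.96 each, and Dio2 to Slc44a1, Srm and Lman1 (0.93, 0.93 and 0.92). Thra was matched best by 2210016L21Rik (0.91), Thrb by 6820431F20Rik (0.90) and Hr by Gpsm3 (0.89). Among the members themselves Klf9 ran opposite to Crym (r = -0.83) and to Dio2 (r = -0.76), and Dio2 with Crym (r = 0.57).

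Comparing knockout with wild type at each age asked whether loss of α9 changed the pathway. Each age was tested by itself on the deposited log2 values over the 40% of probe sets that varied most, with a call at a limma adjusted p below 0.05 and a log2 difference of at least 1.5. That filter kept 11 of the 17 member probe sets; the 3 of Thra, that of Thrb, Klf9 1452723_at and Hr 1422110_at were outside it. None of the 17 was called at P3, P7 or P60, against 0%, 0.0111% and 0% of the tested probe sets, and those outside the filter could not be called. The study lists more differentially expressed probe sets at each of these ages, so its calls there were not reproduced. At an unadjusted p below 0.05 in limma there were 1, 0 and 1 of 17, against 1.94%, 1.59% and 5.14% of all probe sets. At P3 the log2 differences ran from -0.46 to 0.53, at P7 from -0.58 to 0.34 and at P60 from -0.55 to 1.25.

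At P13 a Dio2 probe set was higher in the knockout. The log2 level of 1426081_a_at was 6.95, 7.33 and 7.09 in the 3 wild type arrays and 8.32, 8.91 and 9.10 in the 3 knockout arrays. The genotypes did not overlap, with every knockout array well above the highest wild type array. The log2 difference was 1.66 ± 0.29 (adjusted p = 0.0167), and this was the 1 member called, against 7.06% of the tested probe sets. The other Dio2 probe sets gave a smaller difference or none: 0.60 for 1418938_at (adjusted p = 0.147) and 0.15 for the brightest, 1418937_at, with a 95% confidence interval of -0.49 to 0.78. Within the P13 arrays with poly-A controls the log2 difference of 1426081_a_at was 1.38 (1 array of each genotype), and within those without it was 1.80 (2 of each). The call was lost when P13 wild type 2, knockout 2 or knockout 3 was left out, and without wild type 3 there were 2 member calls. At P7 this probe set overlapped between genotypes, with log2 levels of 8.17, 8.69 and 9.12 in wild type and 8.58, 9.05 and 9.05 in knockout.

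Klf9 1436952_at also passed the adjusted p at P13 but was below the required size. Its log2 level was 4.91, 4.84 and 5.37 in wild type and 5.93, 6.24 and 6.23 in knockout, without overlap, and the log2 difference was 1.10 ± 0.26 (adjusted p = 0.0356). The study gives the size threshold as a log2 ratio in its text and as a fold in a figure legend. Read as a difference of 1.5-fold, it is met by this probe set, and 2 members are then called at P13. Klf9 1422264_s_at had log2 levels of 3.91, 5.45 and 6.34 in wild type and 6.89, 7.91 and 7.37 in knockout, a log2 difference of 2.16 ± 0.60 (adjusted p = 0.0509). The brightest Klf9 probe set, 1428288_at, did not separate the genotypes at P13, with a log2 difference of 0.01 (95% confidence interval -0.54 to 0.56). Crym and Hr 1435950_at likewise gave -0.11 and -0.02.

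In all, 6 of 17 member probe sets did not overlap between genotypes at P13, against 33.6% of all probe sets, and 8 of 17 had an unadjusted p below 0.05 against 27.4% of all. The median log2 difference was 0.46 over the members and -0.16 over all probe sets. Of the 3 wild type arrays at P13, 2 had the low Gapdh 5′ signal and no knockout array did. In wild type 3 the Gapdh 5′ signal was still 2.43 log2 units below the 3′ signal. In knockout 1, 2 and 3 this gap was 0.34, -0.15 and -0.15, so 5′ signal and genotype cannot be told apart at P13. On the deposited scale the mean log2 level of the 2 low-5′ arrays differed from that of wild type 3 by -1.66 for Klf9 1422264_s_at. The difference was -0.49 for 1436952_at and 0.05 for Dio2 1426081_a_at. Since wild type 3 had a Gapdh gap itself, these differences do not compare low-5′ arrays with arrays free of a gap. On the low-5′ arrays of other groups, Dio2 1426081_a_at differed by -1.15 in P3 wild type, -0.70 in P3 knockout and 0.10 in P60 wild type. With wild type 3 as the only array of its group, the log2 difference of Dio2 1426081_a_at was 1.69 ± 0.36 with an adjusted p of 0.148, on the assumption that the lone array varies like the knockout arrays. That of Klf9 1436952_at was then 0.77 and that of 1422264_s_at 1.06, and no member was called. Cerebellar markers and skeletal muscle markers were on average lower in the knockout at P13, with median log2 differences of -1.17 and -1.94, and their mean log2 levels ran from 6.94 to 9.44 and from 7.44 to 10.14 in wild type and from 6.45 to 7.99 and from 7.16 to 7.35 in knockout. Of these, 0 of 10 cerebellar genes and 1 of 6 muscle genes passed the adjusted p at P13, against 3.53% of 18194 genes, whose median log2 difference was -0.22. Other lists were higher in the knockout, with medians of 0.66 for myelinating glia and 0.37 for fibrocytes, where no gene passed. For osteoblast and bone genes the median was 0.08, and no gene passed. The mean log2 level of that list ran from 12.23 to 12.44 in wild type and from 12.51 to 12.92 in knockout. The hair cell gene Pou4f3 (log2 difference 1.40, adjusted p = 0.0209) and Calb2, a calcium-binding protein gene of spiral ganglion neurons (1.62, adjusted p = 0.0462), were higher in the knockout. Each was the 1 gene of its list that passed. The list medians were -0.05 over 7 hair cell genes and 0.21 over 8 spiral ganglion genes. The part of any of these tissues or cells in the Dio2 and Klf9 values was not tested.

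**Figure D4:**
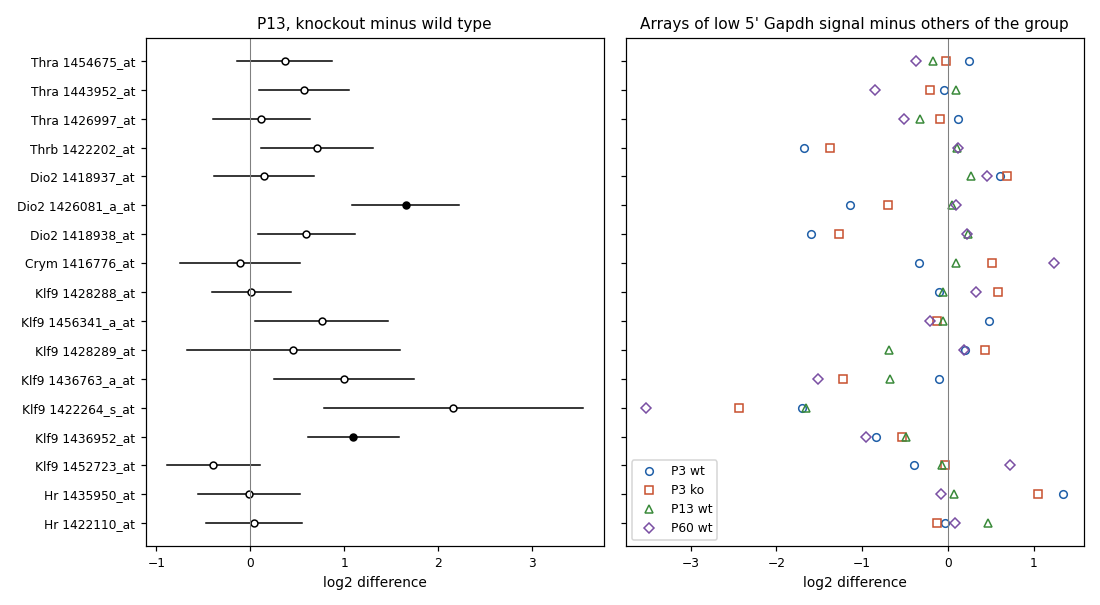
Left, log2 difference of knockout minus wild type at P13 (horizontal axis) for the 17 probe sets (vertical axis) with 95% confidence intervals from limma over all probe sets, filled where that adjusted p was below 0.05. Right, deposited log2 level of the arrays of low Gapdh 5′ signal minus the other arrays of the same group. Dio2 1426081_a_at is at 1.66 on the left. On the right it is at 0.05 for P13 wild type, -1.15 for P3 wild type, -0.70 for P3 knockout and 0.10 for P60 wild type. Klf9 1422264_s_at is at 2.16 on the left and at -1.66 for P13 wild type on the right.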

How the data were processed

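Total RNA of pooled cochleae was labelled with biotin and hybridised to a mouse whole-genome Affymetrix array. The authors deposited log2 values, 1 per probe set and array, made with RMA according to the submitters' processing notes; the methods name RMA background correction, quantile normalization and summary by Tukey biweight in the R package AffyPLM. Array medians of the deposited values ran from 6.49 to 6.89 and were highest at P13, so ages were compared after quantile normalization over all 24 arrays. Probe sets were named from the platform annotation: 34958 had 1 gene symbol, 932 several and 9211 none. Differences were tested with limma 3.58.1 in R 4.3.3 (lmFit and eBayes, two-sided, Benjamini-Hochberg), and figures were drawn with matplotlib 3.10.9; scripts were tested on simulated data. For genotype, 18041 probe sets passed the variance filter. A gene is shown by its probe set of highest mean, its 3 best correlated genes (single-symbol genes of higher mean signal) were looked up, and each list is illustrated by up to 4 genes of largest P60 to P3 change. Members and lists were chosen with earlier results of these data known. The alternatives were other scalings, filters and thresholds, array weights, a replicate block and left-out arrays. Precision is limited by 3 arrays per group, which the labels call biological replicates. Dio3 was not analysed here.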

Additional observations from a re-analysis of the deposited data

How the results depend on the processing

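At P13 the genotype comparison called 1 member; it called 2 with the variance filter taken within the age, with median centring, with array weights, with the replicate block, with no fold threshold and, in an alternative chosen after seeing the data, at 1.5-fold, and 0 without the low-5′ arrays. Leaving out single arrays gave 0 to 2: 0 without wild type 2, knockout 2 or knockout 3, and 2 without wild type 3. Replicate numbers did not pair the arrays: 7 of 12 same-number pairs of deviations had r above 0.1 (range -0.62 to 0.59) and 3 of 12 were best with their own number. Under the block the called probe sets were Dio2 1426081_a_at (adjusted p = 0.0268) and Klf9 1422264_s_at (adjusted p = 0.0392). The replicate block moved no other count by over 1.5 times.

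From P3 to P7, 2 rose on the deposited scale, with array weights and without the low-5′ arrays, 0 in wild type alone and 0 in knockout alone, and 1 to 2 leaving out single arrays (2 without P3 wild type 1, P3 knockout 2, P7 knockout 2, P60 wild type 1 or P60 wild type 2). In place of 1, 2 fell with array weights and without the low-5′ arrays. From P7 to P13, 2 rose on the deposited scale and with median centring, 3 with array weights, 0 at a log2 difference of at least 1 and 0 in knockout alone, and 1 to 2 leaving out single arrays (2 without P13 knockout 1 or P60 knockout 3). In place of 6, 3 fell with the variance filter, which drops Thra, 2 at a log2 difference of at least 1 and 1 in knockout alone. From P13 to P60, in place of 8, 5 rose on the deposited scale, 4 at a log2 difference of at least 1, 5 in wild type alone and 0 in knockout alone, and 5 to 9 leaving out single arrays (5 without P60 wild type 2). In place of 1, 0 fell in wild type alone. From P3 to P60, in place of 4, 2 fell at a log2 difference of at least 1 and 2 in knockout alone. A genotype alone has fewer arrays, and the cause of the other shifts was not tested. The 13 called differences of the brightest probe sets kept their direction under each alternative run, keeping the call in 404 recomputed values and losing it in 23. Of all 68 age differences of members, 9 changed sign on the deposited scale, 4 with median centring and 4 without the low-5′ arrays, none of them called: that of Dio2 1426081_a_at from P13 to P60 went from 0.03 to -0.20 as deposited, and that of Thrb from P7 to P13 from -0.17 to 0.06.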
